A study of Mus musculus with 3 samples.

Results

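The 9 genes described here are Nr3c1, which encodes the glucocorticoid receptor, 6 genes known as targets of that receptor (Fkbp5, Tsc22d3, Errfi1, Dusp1, Per1 and Zbtb16) and the metallothionein genes Mt1 and Mt2. They were selected by gene symbol, 9 of the 19505 genes that the array names, and each was read by 1 probe set. Log2 expression values made with RMA (robust multi-array average) were compared between 3 arrays of mouse plasmacytoid dendritic cells, 1 array per group, from a study of compounds that inhibit the migration of these cells. All cells came from femur and tibia marrow of wild-type male BALB/c mice, 4 to 5 weeks old, were grown for 6 to 9 days with Flt3 ligand at 100 ng/mL in medium that held 2-mercaptoethanol, were matured with CpG oligodeoxynucleotides, which engage TLR9, and were sorted. The astragaloside IV group received that saponin for 12 h and then the CCR7 ligand CCL21 for 1 h, the oxymatrine group received that alkaloid for 12 h and then CCL21 for 1 h, and the third group is labelled only as control. The labels give no dose and do not say if CCL21 or a vehicle was added to the control, so the compound and the CCL21 step cannot be told apart in a difference from control. No label names an added glucocorticoid or metal. How many mice or cultures each array holds is not stated either.

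Glucocorticoid hormones bind a receptor that is held in the cytosol by HSP90 and its co-chaperones; the loaded receptor enters the nucleus, binds glucocorticoid response elements and induces a set of anti-inflammatory and feedback genes, while it restrains NF-kB and AP-1 targets such as cytokine genes. Plasmacytoid dendritic cells are sensitive to glucocorticoids, and signals through TLR7 and TLR9 are known to make them less so. Metallothioneins are small cysteine-rich proteins that bind zinc and copper; their genes are induced by metals through the zinc-sensing factor MTF1 and also by glucocorticoids and oxidants.

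With 1 array in each group there was no replicate, so no difference below has a test, a p-value or a standard error. Each difference is set instead beside the SD of the same difference over 533 or 534 genes of similar level, the gene itself included. That SD describes the scatter among genes on these arrays and does not stand in for replicates. Counts of genes at least as far from control are over the 532 or 533 other genes of similar level. The level filter was a mean log2 level of 5.28, below which 95 percent of 1410 olfactory and vomeronasal receptor genes lay, and 10671 genes passed it. All 9 genes passed, Zbtb16 only just, with a mean of 5.28. Both treated arrays were compared with the same control array, so their differences from control are not independent, and the difference between the treated arrays is given beside them. In bulk RNA, fewer cells of a type and less RNA per cell cannot be told apart. Probes differ in how well they bind, so a level here ranks arrays for 1 gene and does not rank genes.

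Of the 9 genes, Mt2, Mt1 and Zbtb16 were higher and Errfi1 and Fkbp5 were lower in both treated arrays, and Nr3c1 and Dusp1 had the same value in all 3. Of these, Mt2 and Errfi1 lay outside 1 SD of genes of similar level in both treated arrays, and Fkbp5 in the oxymatrine array. None was 2-fold apart in any comparison. Over all 10671 genes the share that was 2-fold apart was 0.197% for astragaloside IV against control, 0.281% for oxymatrine against control and 0.159% for astragaloside IV against oxymatrine. At 1.5-fold, Errfi1 alone of the 9 passed, in the astragaloside IV array, where 2.13% of all genes did. No member passed 1.5-fold between oxymatrine and control, where 3.31% of all genes did, or between the treated arrays, where 2.58% did. By sign, 3 members were higher, 3 lower and 3 equal with astragaloside IV, beside 31.4%, 40.8% and 27.7% of all genes. With oxymatrine 4 were higher, 3 lower and 2 equal, beside 29.7%, 46.0% and 24.4% of all genes. The median over the 9 genes was 0.00 in each comparison, as it was over all genes.

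**Figure D1:**
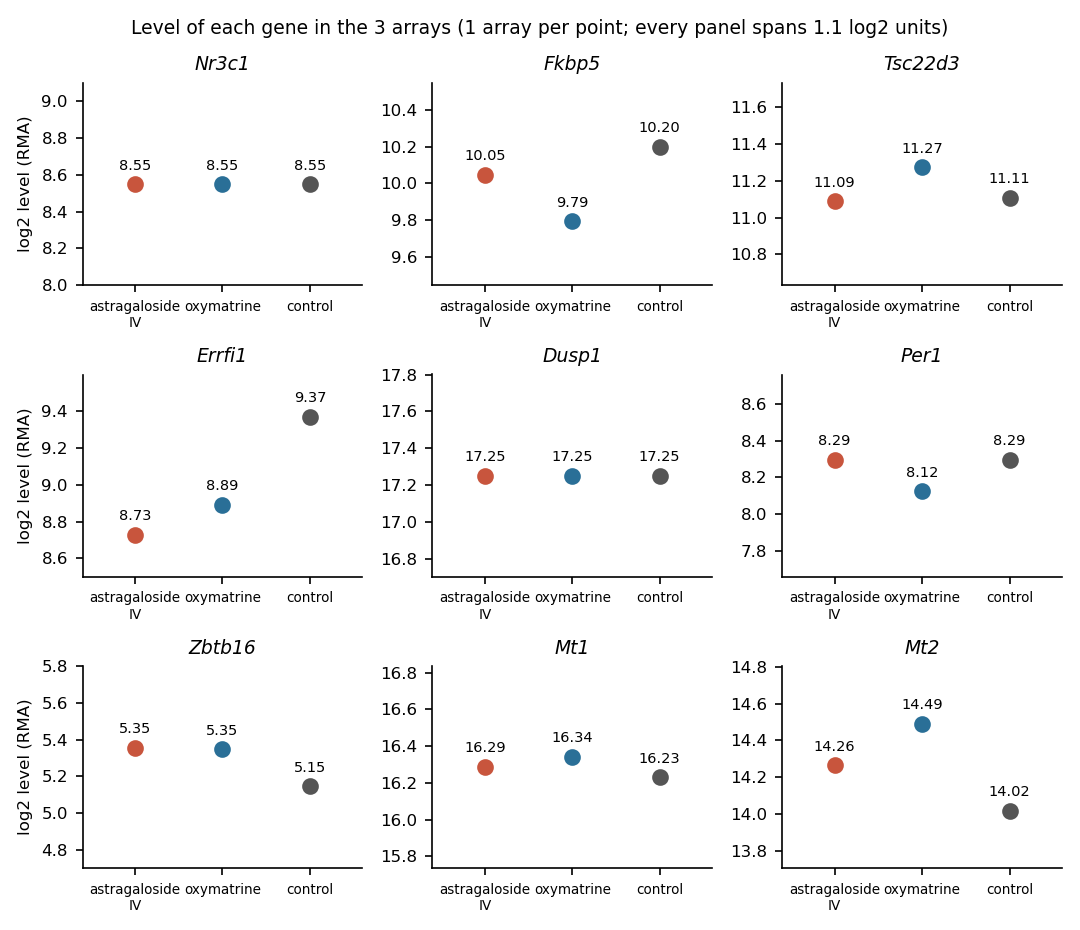
Log2 level (RMA, vertical axis) of the 9 genes in the astragaloside IV, oxymatrine and control arrays, 1 point per array with its value printed; every panel spans the same number of log2 units. Errfi1 and Fkbp5 were lower and Mt2 was higher in both treated arrays than in control, and Nr3c1 and Dusp1 were level across all 3.

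The receptor gene came first. Nr3c1 was at a log2 level of 8.55 in the astragaloside IV array, 8.55 in the oxymatrine array and 8.55 in control. The deposited values were identical to the last digit. RMA's median polish over few arrays often returns equal values, and 13.6% of all genes above the level filter were equal in all 3 arrays, as were 15.0% of the genes of similar level to Nr3c1. Equality therefore says only that the probes gave no consistent offset, and not that the transcript was unchanged. The SD of differences at this level was 0.21 for astragaloside IV and 0.23 for oxymatrine, on the log2 scale.

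The machinery around the receptor was described from a list of 26 chaperones, co-chaperones, coactivators, corepressors and steroid-converting enzymes, of which 22 were measured and 20 were above the level filter. With astragaloside IV 6 of the 20 were higher, 9 lower and 5 equal. With oxymatrine the counts were again 6, 9 and 5, and the median was 0.00 in both. None was past 1.5-fold, beside 2.13% of all genes with astragaloside IV and 3.31% with oxymatrine. The coactivator gene Ncoa1 was at 10.08 with astragaloside IV, 10.07 with oxymatrine and 10.37 in control, differences of -0.29 and -0.30. Stip1, which links HSP70 to HSP90 when the receptor is folded, was at 13.80, 13.59 and 13.94 in the same arrays, and its difference of -0.35 with oxymatrine was the lowest in the list. Nrip1, a corepressor of nuclear receptors, lay 0.08 above control with astragaloside IV and 0.33 above it with oxymatrine. Ppid, the cyclophilin found in receptor complexes, lay on opposite sides of control, at 0.12 with astragaloside IV and -0.31 with oxymatrine. The mineralocorticoid receptor gene Nr3c2 and Hsd11b2, whose product inactivates glucocorticoids, were not above the level filter.

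Fkbp5 encodes FKBP51, an immunophilin that joins the HSP90 complex and lowers the hormone affinity of the receptor; its induction is a classic feedback step. Fkbp5 was at a log2 level of 10.05 in the astragaloside IV array, 9.79 in the oxymatrine array and 10.20 in control. The oxymatrine array was the lowest of the 3 and control the highest. The difference from control was -0.15 with astragaloside IV, where the SD at this level was 0.17, and -0.41 with oxymatrine, where it was 0.20. In the oxymatrine comparison 32 of 532 genes of similar level, or 6.02%, lay at least as far from control in either direction. Between the treated arrays, astragaloside IV minus oxymatrine, the difference was 0.26, or 1.45 times the SD at this level.

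Other FK506-binding protein genes had a median of 0.00 in both treated arrays, with 3 higher, 4 lower and 2 equal of 9 above the level filter with astragaloside IV, and 2 higher, 4 lower and 3 equal with oxymatrine. Fkbp1b, whose product binds calcium release channels, was at 8.28 with astragaloside IV, 8.79 with oxymatrine and 9.38 in control. Its differences from control were -1.10 and -0.59. It was the only gene above the level filter in the 11 related lists that was past 2-fold from control. Over all genes above the filter, 0.197% were 2-fold apart with astragaloside IV and 0.281% with oxymatrine. Fkbp2, an immunophilin of the endoplasmic reticulum, was at 9.84 with astragaloside IV, 9.40 with oxymatrine and 10.15 in control, differences of -0.31 and -0.75. On the high side were Fkbp7 with astragaloside IV, at 0.58 from a control level of 5.04 that lay below the filter, and Fkbpl with oxymatrine, at 0.35.

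Tsc22d3 encodes GILZ, a leucine zipper protein that mediates much of the anti-inflammatory action of glucocorticoids. Tsc22d3 was at 11.09 in the astragaloside IV array, 11.27 in the oxymatrine array and 11.11 in control. The oxymatrine array stood highest and the other two lay close together. The difference from control was -0.02 with astragaloside IV and 0.17 with oxymatrine, 0.94 times the SD of 0.18 at this level. In the oxymatrine comparison 27.8% of genes of similar level to Tsc22d3 lay at least as far from control. In that array Tsc22d3 lay above control within 1 SD, and Fkbp5 lay below control outside 1 SD. Tsc22d3 has 3 annotated promoter windows and 1 probe set, so its isoforms were not separated. Of the other TSC22 family genes, Tsc22d1 was at 11.00 with astragaloside IV, 10.73 with oxymatrine and 11.15 in control. Tsc22d2 differed by 0.18 and 0.06, and Tsc22d4 by 0.00 and 0.05, with astragaloside IV and with oxymatrine in turn. The median of the 3 was 0.00 with astragaloside IV and 0.05 with oxymatrine, while their mean with oxymatrine was -0.10.

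Errfi1 showed the largest difference of the 9 genes. It encodes MIG6, a feedback inhibitor that binds the kinase domain of the EGF receptor and its relatives, and glucocorticoids are among its inducers. Errfi1 was at 8.73 in the astragaloside IV array, 8.89 in the oxymatrine array and 9.37 in control. Both treated arrays were lower than control, and they lay closer to each other than either did to control. The difference was -0.64 with astragaloside IV, or 1.56-fold lower, and -0.48 with oxymatrine, or 1.40-fold lower. These were -3.39 and -2.21 times the SD at this level, which was 0.19 and 0.22. With astragaloside IV 2 of 533 genes of similar level, or 0.375%, lay at least as far from control, and with oxymatrine 34, or 6.38%. The treated arrays differed from each other by -0.16, astragaloside IV minus oxymatrine, within the SD of 0.20.

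Of the receptors that MIG6 restrains, Egfr and Erbb3 passed the level filter and Erbb2 and Erbb4 did not. Of 15 ERBB receptors, ligands and feedback genes, 14 were measured and 4 were above the level filter. Egfr was at 5.70 in the astragaloside IV, oxymatrine and control arrays, just above the filter. Erbb3, the kinase-impaired receptor of the family, was at 5.47 with astragaloside IV, 6.14 with oxymatrine and 6.03 in control, and its difference of -0.55 with astragaloside IV was the lowest of the 4. Epgn, which encodes the ligand epigen, was at 5.29 with astragaloside IV, 5.41 with oxymatrine and 5.17 in control, so it passed the filter of 5.28 through the treated arrays alone, with differences of 0.12 and 0.25. The differences of Lrig1, a negative regulator of these receptors, were -0.17 and -0.17. The list had 1 gene higher, 2 lower and 1 equal with astragaloside IV, with a median of -0.09, and 2 higher, 1 lower and 1 equal with oxymatrine, with a median of 0.06. With the 99th percentile filter, which leaves Erbb3 and Lrig1, the medians were -0.36 and -0.03, so the sign with oxymatrine turned.

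**Figure D2:**
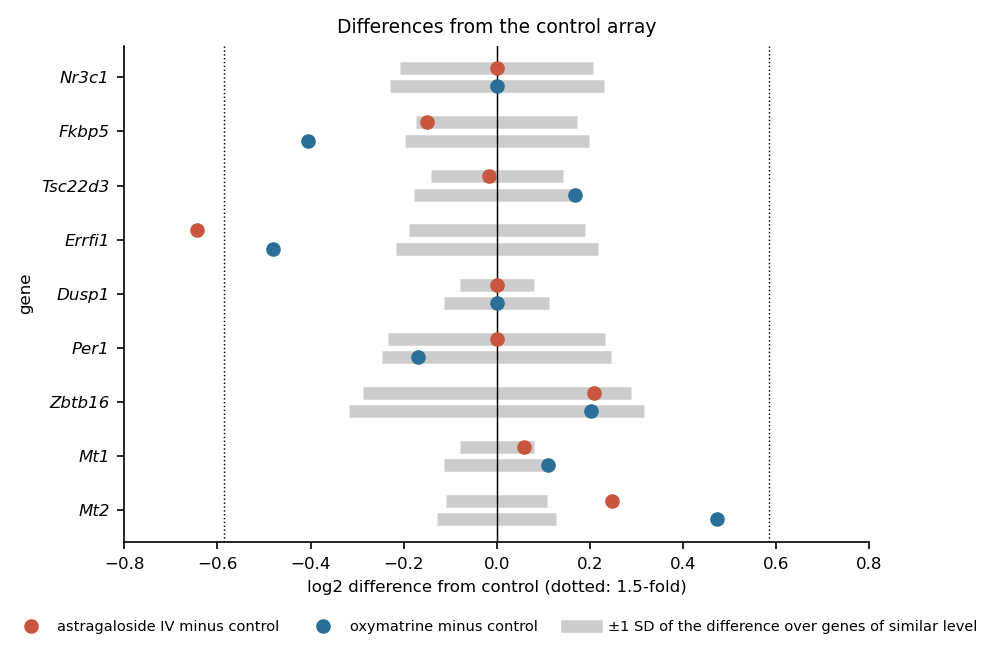
Log2 difference from the control array (horizontal axis) for the 9 genes, astragaloside IV above oxymatrine in each row; grey bars reach 1 SD either side of 0, the SD being that of genes at a similar level in the same comparison, and dotted lines mark 1.5-fold. Errfi1 and Mt2 lie outside the grey bars in both treated arrays and Fkbp5 in the oxymatrine array, while the other 6 genes lie inside them.

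Dusp1 encodes the phosphatase MKP-1, which switches off p38 and JNK and is induced both by glucocorticoids and by TLR signals. Dusp1 was at 17.25 in the astragaloside IV array, 17.25 in the oxymatrine array and 17.25 in control, again identical to the last digit. Among the 533 other genes of similar level, the brightest of the 20 level bins, 57, or 10.7%, were equal in all 3 arrays. The SD of differences there was only 0.08 for astragaloside IV and 0.11 for oxymatrine, and the array's values reached 19.67. Whether the probe set was near saturation was not tested.

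The promoter windows of Errfi1 and Dusp1 are shown because both genes respond to cAMP and stress signals as well as to glucocorticoids, and both hold the cAMP response element TGACGTCA, given in capitals. The windows run from 250 bases before to 50 bases after the annotated start and come from RefSeq, build GRCm38.p6. The Errfi1 window is the second of 2, at chr4:150854820-150855119 on the plus strand, and the first Errfi1 window holds no match to the element. The Dusp1 window is at chr17:26508423-26508722 on the minus strand.
Errfi1: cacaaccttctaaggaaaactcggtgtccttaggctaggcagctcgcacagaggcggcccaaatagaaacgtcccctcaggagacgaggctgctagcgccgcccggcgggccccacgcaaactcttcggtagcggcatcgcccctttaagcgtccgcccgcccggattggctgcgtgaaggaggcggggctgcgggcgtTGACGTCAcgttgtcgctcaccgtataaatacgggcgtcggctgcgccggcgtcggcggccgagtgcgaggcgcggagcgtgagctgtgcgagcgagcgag
Dusp1: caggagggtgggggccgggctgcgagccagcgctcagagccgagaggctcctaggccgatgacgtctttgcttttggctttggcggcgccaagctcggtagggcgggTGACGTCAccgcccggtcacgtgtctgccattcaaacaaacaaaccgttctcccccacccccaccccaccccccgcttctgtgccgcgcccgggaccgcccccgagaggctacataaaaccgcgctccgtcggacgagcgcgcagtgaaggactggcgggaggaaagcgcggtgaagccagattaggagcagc

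The element begins at -51 in Errfi1 and at -143 in Dusp1, counted in bases from the annotated start at 0, and 1.79% of the 32851 RefSeq windows of this length hold it. Both genes share these letters, while Errfi1 was lower in the treated arrays and Dusp1 was equal. The part of the element in these values was not tested. A match describes letters in the window and does not show that a factor binds there.

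Relatives of Dusp1 lay close to control. Of 8 dual-specificity phosphatase genes above the level filter, out of 10 measured, 2 were higher, 4 lower and 2 equal with astragaloside IV, with a median of -0.05, and 3 were higher, 3 lower and 2 equal with oxymatrine, with a median of 0.00. Dusp2, an immune-cell phosphatase, was at -0.21 from control in the astragaloside IV array and at 0.01 in the oxymatrine array, and Dusp4 by -0.19 and -0.19. On the high side, Dusp6, which acts on ERK, was at 0.06 with astragaloside IV and Dusp14 at 0.11 with oxymatrine. Of the kinases that these phosphatases act on and the immediate early genes downstream, 18 of 20 measured were above the filter. With astragaloside IV 8 of the 18 were higher, 6 lower and 4 equal, and with oxymatrine 8 were higher, 8 lower and 2 equal, with a median of 0.00 in both. Egr2, an early response transcription factor gene, was at 8.47 in both treated arrays and 8.85 in control, and Mapk14, which encodes p38 alpha, was at 10.98 with astragaloside IV, 10.73 with oxymatrine and 11.11 in control. Fosb, an AP-1 subunit gene, was equal to control in the astragaloside IV array and 0.46 above it in the oxymatrine array, and for Egr3 the differences were 0.14 and 0.00.

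Per1, a core clock repressor that glucocorticoids induce directly, was at 8.29 in the astragaloside IV array, 8.12 in the oxymatrine array and 8.29 in control. The astragaloside IV and control values were equal and the oxymatrine value was lower. Its difference of -0.17 with oxymatrine lay within the SD of 0.25 at this level, and 198 of 533 genes of similar level lay at least as far out. Of the other clock genes, 8 of 14 above the filter were higher, 2 lower and 4 equal with astragaloside IV, and 7 were higher, 2 lower and 5 equal with oxymatrine. Their medians were 0.01 with astragaloside IV and 0.02 with oxymatrine, beside 0.00 over all genes, and median centring of the arrays brought the oxymatrine value to just under 0. Clock, the activator that pairs with the Arntl product, was at 11.84 with astragaloside IV, 11.67 with oxymatrine and 11.45 in control. Nfil3, a clock-linked repressor gene, was at 11.54, 11.54 and 11.30 in the same arrays. Arntl was at 0.00 from control in the astragaloside IV array but at -0.28 in the oxymatrine one, and the differences of the repressor gene Nr1d1 were -0.34 and 0.16.

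Zbtb16 encodes PLZF, a BTB zinc finger factor induced by glucocorticoids in many tissues and known as a master factor of innate-like lymphocytes. Zbtb16 was at 5.35 in the astragaloside IV array, 5.35 in the oxymatrine array and 5.15 in control. Both treated values lay above the filter of 5.28 and the control value below it, so the differences of 0.21 and 0.20 rest on a control value under the filter. They were within the SD at this level, 0.29 for astragaloside IV and 0.32 for oxymatrine. Of the related BTB zinc finger genes 12 were above the filter, and 5 were higher, 4 lower and 3 equal with astragaloside IV, with a median of 0.00. With oxymatrine 1 was higher, 7 lower and 4 equal, with a median of -0.06. Zbtb46, a marker of conventional dendritic cells, was that 1 higher gene, at 5.74 with oxymatrine and 5.47 in control, and Zbtb10 was the highest with astragaloside IV, at 0.35. Hic1, a growth-restraining repressor gene, differed by -0.32 in both treated arrays. Beside Zbtb16, markers of T, NK and innate lymphoid cells averaged a log2 level of 8.57 with astragaloside IV, 8.61 with oxymatrine and 8.94 in control over the 4 of 10 measured that were above the filter. Il2rb among them lay at -1.01 from control in the astragaloside IV array and at -0.84 in the oxymatrine array. Cd5 lay at -0.45, Il7r at -0.02 and Gzma at 0.00 from control in both treated arrays. The defining genes Cd3d, Cd3e, Cd3g and Ncr1 were not above the filter in the mean over the arrays. The part of such cells in the Zbtb16 values was not tested.

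Mt2 was the member that stood highest above control. Mt2 was at 14.26 in the astragaloside IV array, 14.49 in the oxymatrine array and 14.02 in control. All 3 arrays differed, with oxymatrine at the top and control at the bottom. The difference from control was 0.25 with astragaloside IV, or 1.19-fold, and 0.47 with oxymatrine, or 1.39-fold. At this level genes lay close together, with SDs of 0.11 and 0.13, so the differences were 2.28 and 3.71 times the SD. In the oxymatrine comparison 2 of 533 genes of similar level, or 0.375%, lay at least as far from control, and in the astragaloside IV comparison 30, or 5.63%. Astragaloside IV minus oxymatrine was -0.23, or -2.32 times the SD at this level.

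Mt1 had the same order of arrays over a smaller range. Mt1 was at 16.29 in the astragaloside IV array, 16.34 in the oxymatrine array and 16.23 in control. The differences from control were 0.06 with astragaloside IV and 0.11 with oxymatrine, 0.74 and 0.98 times the SD at this level, and the treated arrays differed by -0.05. Mt1 and Mt2 encode near-identical proteins. Probe sequences were not used here, so cross-hybridisation between the 2 transcripts was not tested.

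The promoter windows of Mt1 and Mt2 are shown because both genes were higher in both treated arrays and because metal response elements are the best-known control sites of this pair. Capitals mark the element core, TGCACNC or TGCGCNC on either strand. The Mt1 window is at chr8:94178839-94179138 and the Mt2 window at chr8:94172368-94172667, both on the plus strand of GRCm38.p6.
Mt1: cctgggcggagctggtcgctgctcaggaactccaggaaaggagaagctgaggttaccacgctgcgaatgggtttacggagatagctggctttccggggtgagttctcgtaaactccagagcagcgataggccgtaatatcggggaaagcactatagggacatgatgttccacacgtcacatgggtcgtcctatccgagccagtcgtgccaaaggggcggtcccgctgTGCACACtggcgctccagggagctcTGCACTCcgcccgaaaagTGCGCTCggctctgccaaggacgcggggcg
Mt2: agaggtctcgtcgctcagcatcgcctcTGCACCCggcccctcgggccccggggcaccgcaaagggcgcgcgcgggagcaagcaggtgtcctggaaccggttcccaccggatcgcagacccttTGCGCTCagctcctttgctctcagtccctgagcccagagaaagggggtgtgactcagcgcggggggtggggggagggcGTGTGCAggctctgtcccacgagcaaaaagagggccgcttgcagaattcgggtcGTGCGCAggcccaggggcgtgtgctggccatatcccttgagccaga

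The Mt1 window holds 3 cores and the Mt2 window 4, none overlapping another. Of all 32851 windows 25.7% hold at least 1 core, 1.97% hold at least 3 and 0.517% hold at least 4. The Mt2 window also holds the antioxidant response element TGACNNNGC, present in 12.4% of windows, which begins at -79 and does not overlap a core. Among the other members, the Dusp1 window and the second Per1 window hold 1 core each. The antioxidant element matches 2 times in the first Per1 window and 1 time in the Dusp1 window. The 4 cores of Mt2 begin at -223, -128, -50 and 4, and the 3 of Mt1 at -23, 2 and 20, counted from the annotated start at 0. Cores outside these windows, upstream or downstream, would not be seen. Whether the annotated starts are the ones used in these cells was not tested.

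**Figure D3:**
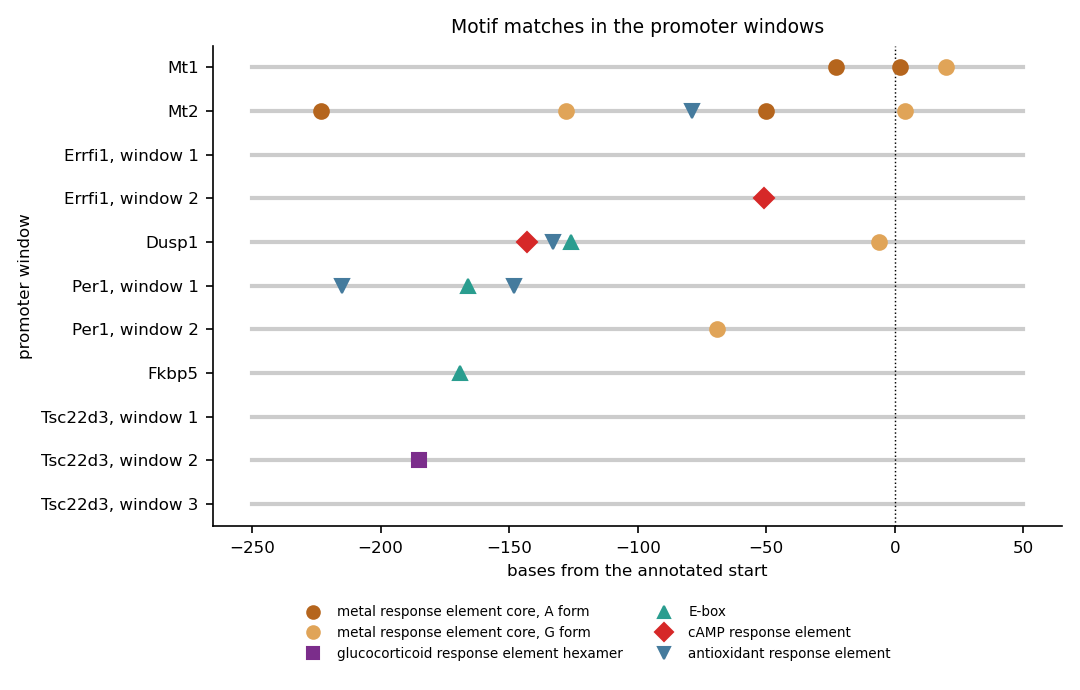
Positions of motif matches, in bases from the annotated start (horizontal axis), in the 11 RefSeq promoter windows of 7 of the genes; each symbol marks where a match begins, and each grey line is 1 window. Mt1 and Mt2 carry 3 and 4 metal response element cores, and the Dusp1 window and the second Per1 window carry 1 each. The glucocorticoid response element hexamer appears once, in a Tsc22d3 window.

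Among all the windows of these genes, the glucocorticoid response element hexamer AGAACA, sought on both strands, was found in 1 of 11, the second Tsc22d3 window, where 19.0% of all windows hold it. The full palindromic element was found in none of the 11, and in 3 of all 32851 windows. The E-box CACGTG, through which clock factors act, lies in the first Per1 window, the Fkbp5 window and the Dusp1 window, and in 7.15% of all windows. In the Dusp1 window it overlaps an antioxidant response element match. These windows reach only 250 bases upstream, and known receptor sites of genes such as Fkbp5 lie far from the start, so an absent match says nothing of the receptor.

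The relatives and regulators of the metallothioneins were mostly nearer to control than Mt2. Mt3 and Mt4 lie beside Mt2 and Mt1 in the same cluster of the annotation. Mt3, the brain form, was at 3.25 with astragaloside IV, 3.25 with oxymatrine and 3.14 in control, below the level filter throughout. Mt4, the epithelial form, was at 5.61 in all 3 arrays. Mtf1, which encodes the metal-sensing activator of Mt1 and Mt2, was at 11.38, 11.44 and 11.36 in the astragaloside IV, oxymatrine and control arrays, differences of 0.01 and 0.07. The zinc exporter gene Slc30a1, another MTF1 target, was at 7.72 with astragaloside IV, 7.96 with oxymatrine and 7.96 in control. Among 25 metal transport and storage genes above the filter, 7 were higher, 10 lower and 8 equal with astragaloside IV, and 6 were higher, 11 lower and 8 equal with oxymatrine, with a median of 0.00 in both. The zinc importer gene Slc39a11 was 0.07 above control with astragaloside IV, and its -0.63 with oxymatrine was the lowest value of the list. The importer gene Slc39a10 also differed by -0.63 with oxymatrine and by 0.18 with astragaloside IV. Slc39a7, a transporter of the endoplasmic reticulum, differed by -0.34 in both treated arrays, Slc39a14 by 0.26 with astragaloside IV, and the exporter gene Slc30a3 by 0.21 with oxymatrine.

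**Figure D4:**
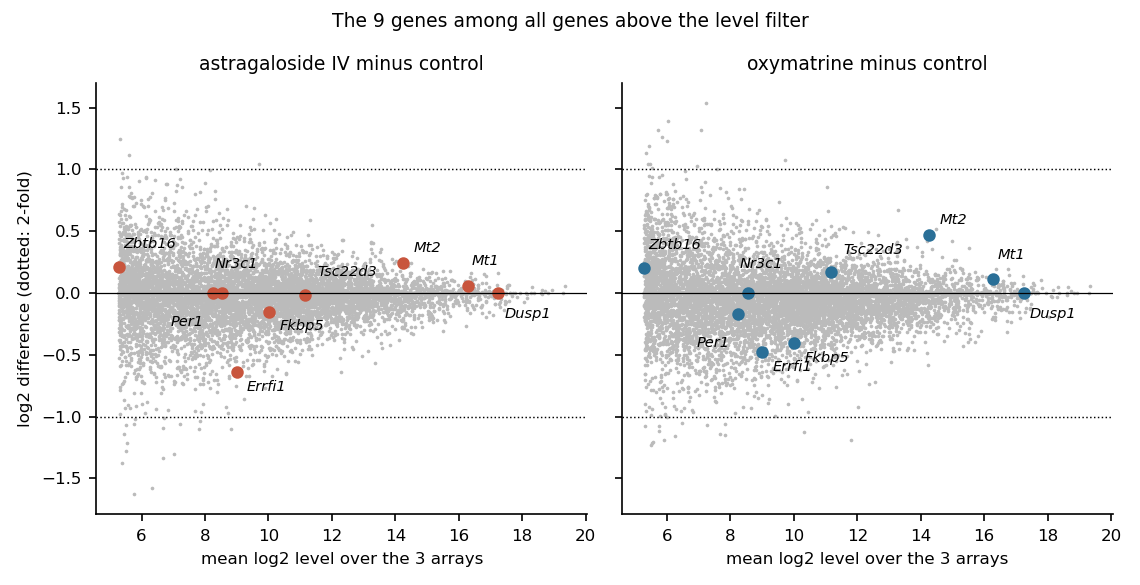
Log2 difference from control (vertical axis) against mean log2 level over the 3 arrays (horizontal axis) for the 10671 genes above the level filter (grey), astragaloside IV on the left and oxymatrine on the right, with the 9 genes named; dotted lines mark 2-fold. The grey cloud narrows with level. Mt2 lies in the upper part of the cloud with astragaloside IV, at 0.25, and at its upper edge with oxymatrine, at 0.47.

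Among further glucocorticoid targets more genes were lower than higher in both treated arrays. Of the 28 measured genes of this kind that the receptor is known to induce, 23 were above the filter. With astragaloside IV 5 of the 23 were higher, 11 lower and 7 equal, beside 31.4%, 40.8% and 27.7% of all genes. The median with astragaloside IV was 0.00. With oxymatrine 4 were higher, 16 lower and 3 equal, beside 29.7%, 46.0% and 24.4% of all genes. The oxymatrine median was -0.07, beside 0.00 over all genes. None of the 23 was past 1.5-fold in either comparison, where 2.13% of all genes were with astragaloside IV and 3.31% with oxymatrine. The lowest with oxymatrine was Mertk, an engulfment receptor gene, at 7.12 with astragaloside IV, 6.94 with oxymatrine and 7.39 in control. The lowest with astragaloside IV was Lcn2, which encodes the iron-sequestering lipocalin, at 12.71, 12.94 and 13.21 in the same arrays. Gadd45a, a stress response gene, was equal to control in the astragaloside IV array and 0.32 above it in the oxymatrine array, and Angptl4 was 0.11 above it in both. Lcn2 is also a neutrophil marker and Mertk a macrophage marker. The 3 neutrophil markers above the filter, of 9 measured, averaged 10.16 with astragaloside IV, 10.46 with oxymatrine and 10.58 in control. S100a8, S100a9, Elane and Mpo were not above the filter in the mean over the arrays. S100a8 was above it in control alone, at 5.52, beside 4.71 with astragaloside IV and 4.84 with oxymatrine. The 9 measured markers of monocytes and macrophages were all above the filter and averaged 11.38 with astragaloside IV, 11.38 with oxymatrine and 11.46 in control. The part of these cells in the target values was not tested.

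Genes that the receptor is known to restrain were no higher as a group. Of 16 cytokine, chemokine and costimulation genes above the filter, 3 were higher, 9 lower and 4 equal with astragaloside IV, with a median of -0.03. With oxymatrine 5 were higher, 9 lower and 2 equal, with a median of -0.01 that became 0.01 after quantile normalisation or lowess centring. Il1a was the lowest in both, at 9.83 with astragaloside IV, 9.99 with oxymatrine and 10.50 in control. It alone of the 16 was past 1.5-fold from control, with astragaloside IV only. Over all genes 2.13% were past 1.5-fold with astragaloside IV and 3.31% with oxymatrine. Ifnb1, which encodes interferon beta, was at 5.74 with astragaloside IV, 6.31 with oxymatrine and 5.74 in control, and Ccl3 differed by 0.07 and 0.09. In both lists the genes lower than control outnumbered the higher ones in each treated array. Over all genes 40.8% were lower and 31.4% higher with astragaloside IV, and 46.0% and 29.7% with oxymatrine.

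**Figure D5:**
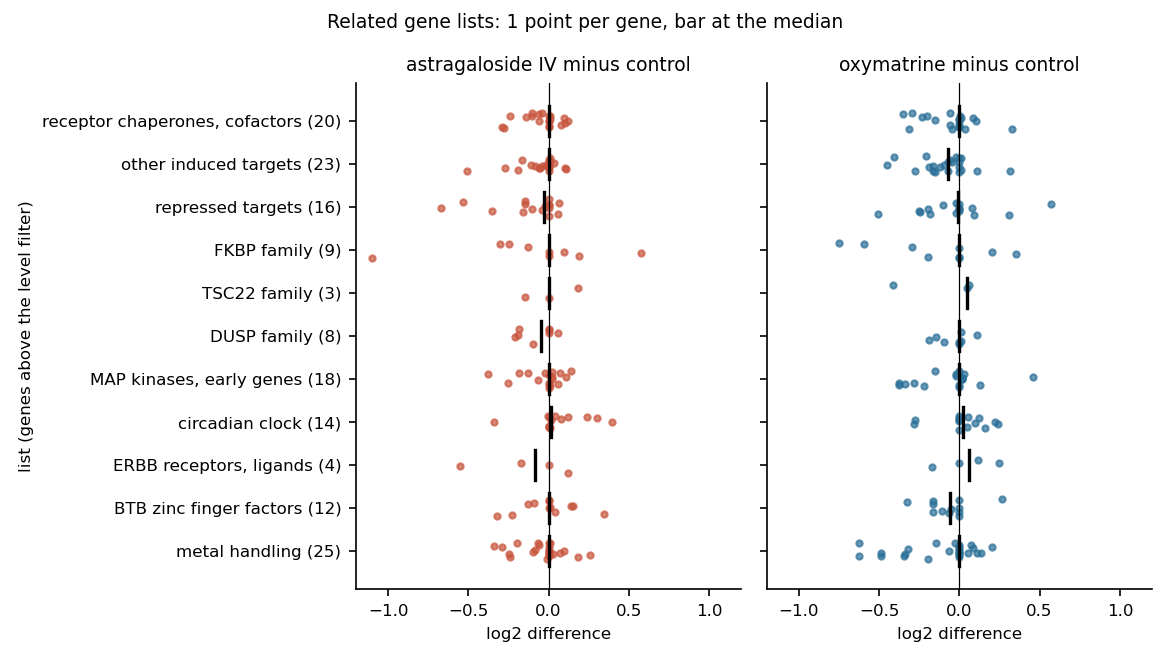
Log2 difference from control (horizontal axis) for the genes above the level filter in 11 related lists (rows, with the number of genes), astragaloside IV on the left and oxymatrine on the right; each point is 1 gene, jittered vertically, and black bars mark list medians. The medians lie between -0.09 and 0.06, and Fkbp1b with astragaloside IV is the farthest point, at -1.10.

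The genes whose 3 differences came nearest those of the 3 most displaced members were sought among genes within 1 log2 unit of their mean level. For Errfi1 they were Wdr77, at 7.97 with astragaloside IV, 8.09 with oxymatrine and 8.60 in control, and H2ac6, at 8.45, 8.67 and 9.13, with Euclidean distances of 0.05 and 0.07 over the 3 pairwise differences among 2370 genes. For Mt2 they were Rmc1, at 14.47, 14.75 and 14.23 in the same arrays, and Snx3, at 14.15, 14.43 and 14.01, with distances of 0.07 and 0.13 among 784 genes. For Fkbp5 they were Tsc22d1 and Septin6, with distances of 0.02 and 0.03 among 2403 genes. With 3 arrays a likeness of this kind rests on 2 independent differences and describes these arrays only.

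The labelled cell type was checked against its markers. Of 16 measured genes that mark plasmacytoid dendritic cells 14 were above the level filter, among them Siglech, Bst2, Tcf4 and Irf7, and Pacsin1 and Cd209d were not. The mean log2 level of the 14 was 11.39 with astragaloside IV, 11.38 with oxymatrine and 11.50 in control. With astragaloside IV 0 were higher, 8 lower and 6 equal, beside 31.4%, 40.8% and 27.7% of all genes. With oxymatrine 2 were higher, 11 lower and 1 equal, beside 29.7%, 46.0% and 24.4% of all genes. Type 1 conventional dendritic cell markers averaged 7.85 with astragaloside IV, 7.77 with oxymatrine and 8.02 in control over 8 of 10 measured. Type 2 markers averaged 9.88, 9.89 and 9.87 in the same arrays over 6 of 9. B cell markers averaged 7.86, 7.96 and 7.83 over 3 of 7. Monocyte and macrophage markers averaged 11.38, 11.38 and 11.46 over 9 of 9. Xcr1 and Clec9a of type 1 cells, Cd209a of type 2 cells and Pax5 and Cd79a of B cells were not above the filter. Others of these lists were above it, among them Cadm1 at 11.80, Sirpa at 14.90, Itgam at 14.69 and Cd79b at 10.13 in control. The part of other cells in the values of the 9 genes was not tested.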

How the data were processed

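RNA of 3 samples was hybridised to 1 array each. The authors' deposited log2 values, 1 for each probe set, were made with RMA, per the submitters' processing notes; which software ran it is not stated there. The base 2 scale is inferred from the values, which run from 1.78 to 19.67. RMA subtracts background, equalises arrays by quantiles and summarises probes by median polish, which often returns equal values when arrays are few.

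The platform annotation gave 19572 of 28846 probe sets 1 gene. Where a gene had several (55 genes, no member), the brightest served. Differences are of 2 log2 values, and genes of similar level come from 20 bins of equal size. Groups of 1 array allow no test, and the number of arrays limits the precision. Calculations were checked on simulated data.

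The 9 genes and all lists were chosen with earlier results of these data known. From each list the highest and lowest gene against control in each treated array were named, with the 2 genes nearest to each of the 3 members farthest from control. Tsc22d4, Egfr, Erbb2, Erbb4, Mt3, Mt4, Mtf1, Slc30a1, Slc39a10, Nr3c2, Hsd11b2 and the marker genes were named after their values were seen. Alternatives were median centring, quantile normalisation, lowess centring (fraction 0.3), probe set means, list means, the 99th percentile filter or none, and thresholds of 1.5-fold and 3-fold. RefSeq promoter windows (GRCm38.p6) matched 7 of the 9 genes. Python 3.11.15, numpy 2.4.6, pandas 2.3.3, statsmodels 0.14.6 and matplotlib 3.10.9 were used.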

Additional observations from a re-analysis of the deposited data

How the results depend on the processing

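The 27 member differences were recomputed under 4 alternatives that bear on them (median centring, quantile normalisation, lowess centring and means over probe sets), which gave 108 values. All 108 moved by less than the SD at the gene's level, the most by 0.08, and 1 changed sign, Tsc22d3 with astragaloside IV minus control, which was 0.00 after quantile normalisation in place of -0.02. Errfi1 with astragaloside IV stayed between -0.64 and -0.62 and with oxymatrine between -0.51 and -0.42. Mt2 stayed between 0.25 and 0.28 and between 0.45 and 0.51, and Fkbp5 with oxymatrine between -0.43 and -0.34. The equal values of Nr3c1 became 0.08 at most with oxymatrine after quantile normalisation. Among list medians, the ERBB list moved most with the 99th percentile filter, which leaves 2 genes, to -0.36 with astragaloside IV, -0.03 with oxymatrine and -0.34 for astragaloside IV minus oxymatrine. The mean of the TSC22 list with oxymatrine, -0.10, had the opposite sign to its median. The medians of the restrained targets and of the clock list with oxymatrine, and of the clock list for astragaloside IV minus oxymatrine, changed sign under some normalisations by less than 0.03. Counts of genes 2-fold apart depended on the filter and threshold by construction. Between astragaloside IV and control, 21 genes became 11 with the 99th percentile filter, 79 with no filter, 227 at 1.5-fold and 1 at 3-fold. Between oxymatrine and control, 30 became 17, 90, 353 and 0 in the same order, and between astragaloside IV and oxymatrine 17 became 9, 82, 275 and 1. Zbtb16 did not pass the 99th percentile filter, at 5.88. No paired analysis was possible because each group has 1 array. With no replicate arrays, neither biological nor technical error of any value is known.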
